A study of Mus musculus with 10 samples.

Results

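The unfolded protein response is described here through 10 genes, chosen by name as its sensors and best known targets and grouped by the IRE1, PERK and ATF6 arms. All 10 are among the 54838 genes listed for each library, and all 10 were among the 14719 genes with enough counts to be tested. The IRE1 arm holds Ern1, Ern2, Xbp1 and Dnajb9, the PERK arm Eif2ak3, Atf4 and Ddit3, and the ATF6 arm Atf6, Hspa5 and Hsp90b1. The libraries were made from polyA RNA of crypts taken from the jejunum, 1 per animal, of 5 WT mice and 5 mice with a conditional knockout of Arid3a (cKO). The cKO animals carried Villin-CreERT2 and Arid3a fl/fl, which deletes the transcription factor Arid3a in Villin-expressing epithelium and leaves stromal and blood cells with the gene. Both genotypes received tamoxifen on 3 days and were culled 1 month after the first injection. The alleles of the WT animals and the age of the mice are not given in the sources used here.

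The unfolded protein response adjusts the endoplasmic reticulum (ER) to its load of secretory protein. Its sensors, 1 for each arm, sit in the ER membrane. IRE1 is a kinase and RNase that removes a short intron from Xbp1 mRNA, so that the spliced mRNA encodes the active transcription factor XBP1. PERK phosphorylates eIF2α, which lowers general translation and favours translation of ATF4, and ATF6 travels to the Golgi, where it is cut to free a transcription factor. All these steps act on protein or on splicing, so the RNA level of a sensor does not measure its activity. In the gut, the response is best known in Paneth and goblet cells, which secrete large amounts of protein, and Ern2 encodes IRE1β, a paralogue of the widely expressed IRE1α that is found mainly in mucosal epithelium.

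The sequences at which the arms act on RNA and DNA are shown first because they link the sensors to the other genes described. The intron that IRE1 removes lies in exon 4 of Xbp1 transcript 201 (GRCm38, chr11:5524279-5524304, plus strand). It is printed with 15 coding bases on each side, from the GENCODE transcript, and the intron is in capitals.
Xbp1: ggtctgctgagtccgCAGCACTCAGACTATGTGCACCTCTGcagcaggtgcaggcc
The intron is 26 bases long, so that its removal changes the reading frame and lengthens the longest open reading frame of this transcript from 267 to 371 codons. It was present in 3 of the 4 annotated Xbp1 transcripts, and the joined sequence without it was present in 0 of 4. The gene level counts therefore do not separate spliced from unspliced Xbp1.

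ATF6 and XBP1 bind the ER stress response element (ERSE), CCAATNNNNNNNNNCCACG. Both strands of the RefSeq promoters (GRCm38.p6, 250 bases before to 50 after each start) were searched, and 39 of 32851 promoters held it (0.119%). A promoter was listed for 8 of the 10 genes, all but Ern2 and Atf6. The element was found in the promoters of 2 of the 8, Hspa5 and Hsp90b1, which encode the main ER chaperones. The Hspa5 match began 65 bases before the start, and the Hsp90b1 matches began 212 and 107 bases before it. The 29 bases around each are printed on the strand of the gene, with the element in capitals. In the second Hsp90b1 match it is read on the other strand.
Hspa5 (chr2:34772020-34772048, plus): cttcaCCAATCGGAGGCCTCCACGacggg
Hsp90b1 (chr10:86705633-86705661, minus): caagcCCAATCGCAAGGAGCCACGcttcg
Hsp90b1 (chr10:86705528-86705556, minus): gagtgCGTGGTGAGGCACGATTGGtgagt
The core of the XBP1 element (UPRE), TGACGTG, was present in 661 promoters (2.01%), among them those of Hspa5 and Sec24d. The C/EBP-ATF response element (CARE) bound by ATF4, TGATGNAA, was present in 1304 promoters (3.97%), among them those of Trib3 and Asns, genes of the PERK arm that are described below. These 4 windows are given with the motif in capitals, the Trib3 match being on the other strand.
Hspa5 (chr2:34771928-34771944, plus): agcaaTGACGTGagttg
Sec24d (chr3:123267465-123267481, plus): gcgccTGACGTGgcact
Trib3 (chr2:152344034-152344051, minus): caggtTTACATCAgccgg
Asns (chr6:7693220-7693237, minus): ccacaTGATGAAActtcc
No matches of different motifs overlapped among the genes of the lists used here. A match is only a run of letters and does not show binding.

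The libraries held 27050455 to 31053622 counts each. A CPM of 1 (counts scaled to the library's total) stood for 27 to 31 counts before TMM scaling. The CPM given here are also scaled between libraries by TMM factors (0.934 to 1.08), and TPM are the deposited values per transcript length. Arid3a, the deleted gene, lay between 1.91 and 2.75 CPM in WT and between 0.303 and 1.17 CPM in cKO, with no overlap. Paneth markers were lower in cKO (6 of 7 passed the test) and enterocyte markers higher (9 of 9), while 0 of 7 goblet markers passed. The summed TPM of the enterocyte markers was lowest in WT replicates 3 and 4 (2068 and 1393), against 3424 to 6995 in the other WT and 7225 to 14420 in the cKO libraries. Plasma cell markers, from another cell type with a heavy secretory load, summed to 137.5 to 232.5 TPM in WT and 37.4 to 87.9 in cKO, and 3 of 6 tested were lower. Of the other marker lists, stem cell markers were lower (3 of 4), 2 of 6 enteroendocrine, 2 of 5 tuft and 1 of 5 general epithelial markers were higher, 1 of 5 myeloid and 1 of 6 tested stromal and endothelial markers were lower, 0 of 5 T cell markers passed, and no marker was at 0 in all libraries. In such bulk samples, fewer cells of a type and less RNA per cell cannot be told apart.

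Deletion of Arid3a went with a rise of Dnajb9 and a fall of Ern2 in the crypt, and the other 8 genes did not pass the test (edgeR's quasi-likelihood test, Benjamini-Hochberg adjusted p below 0.05). Dnajb9 was 1.59-fold higher and Ern2 was lower, at 0.623 of its WT level. Both belong to the IRE1 arm, and 0 of 3 genes of the PERK arm and 0 of 3 of the ATF6 arm passed. The 2 of 10 genes (20%) stand beside 28.3% of all tested genes, of which 15.6% were higher and 12.7% lower. The same 2 genes had no overlap between the 5 WT and the 5 cKO libraries, in CPM and in TPM, beside 19.6% of all tested genes in CPM. A share of this size is near the background and does not set the 10 genes apart.

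**Figure D1:**
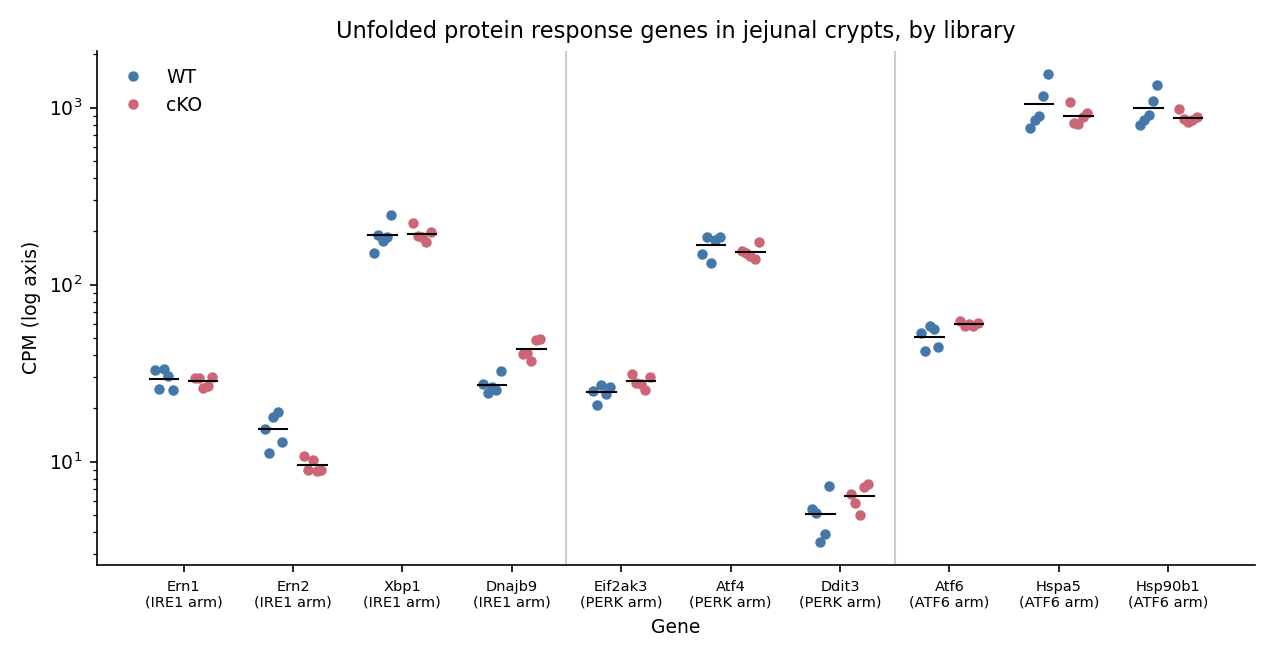
CPM (log axis) of the 10 genes in each of the 5 WT and 5 cKO libraries, with a black line at each mean and vertical lines between the arms. The cKO libraries of Dnajb9 all lie above and those of Ern2 all lie below the WT libraries, and the groups overlap in the other 8 genes.

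In the IRE1 arm, Ern1 encodes IRE1α, the sensor present in most cells. Its CPM were 32.7, 25.7, 33.2, 30.2 and 25.5 in WT replicates 1 to 5 and 29.5, 29.8, 26.2, 26.6 and 30.0 in cKO replicates 1 to 5. The cKO values lay inside the WT range. The log2 fold change of cKO over WT was −0.05 (standard error 0.09, edgeR adjusted p = 0.694), with a 95% confidence interval from −0.25 to 0.15.

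Ern2, the gene of the epithelial sensor IRE1β, had 15.2, 11.2, 17.9, 19.1 and 12.9 CPM in WT and 10.7, 8.92, 10.2, 8.81 and 8.93 CPM in cKO, from 236 to 569 counts per library. All cKO libraries were below all WT libraries, although WT replicate 2 and cKO replicate 1 were close. WT replicates 3 and 4, which had the fewest enterocyte marker transcripts, were the highest. Ern2 fell by 0.68 on the log2 scale (standard error 0.14, edgeR adjusted p = 0.00498; 95% confidence interval −0.99 to −0.38). Without WT replicates 3 and 4 it was −0.46 and still passed (edgeR adjusted p = 0.0337). Goblet cells are a main site of Ern2 expression, and the goblet markers summed to 3244 to 5484 TPM in WT and 4109 to 4890 TPM in cKO, with a median log2 fold change of 0.10 over the 7 genes. These markers were split, from −0.32 for Spink4 to 0.59 for Zg16, with 5 above and 2 below 0, and 0 passed. The Paneth markers summed to 45150 to 66140 TPM in WT and 26070 to 36240 TPM in cKO, with a median log2 fold change of −0.68 over the 7 genes. The part of the goblet, Paneth and enterocyte markers in the fall of Ern2 was not tested.

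Since TPM divides by length, the paralogous sensors can be set against each other within a library. The ratio of Ern2 to Ern1 TPM was 1.09, 1.05, 1.21, 1.46 and 1.18 in WT and 0.865, 0.722, 0.918, 0.801 and 0.708 in cKO. Ern2 was thus above Ern1 in each WT library and below it in each cKO library. The mean ratio was 1.20 ± 0.159 (SD, n = 5) in WT and 0.803 ± 0.0905 (SD, n = 5) in cKO, a log2 difference of −0.56 (two-sided exact permutation test over all assignments of the libraries, p = 0.00794, the smallest this design can give). This was 1 of 3 ratios tested, and its Benjamini-Hochberg adjusted p over the 3 exact tests was 0.0238. Without WT replicates 3 and 4, the log2 difference was −0.46 (exact permutation p = 0.0179, the smallest that 3 against 5 can give).

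Ern2 was also set against Muc2, the main secreted mucin of goblet cells. Muc2 itself did not pass the test, with a level of 266 ± 70.4 CPM in WT, against 325 ± 39.3 CPM in cKO libraries (SD, n = 5 each). Its log2 fold change was 0.29, above 0 as in 5 of the 7 goblet markers, while Spink4 (−0.32) and Agr2 (−0.23) were below 0. The size of the ratio difference therefore depends on the marker chosen, and ratios to the other goblet markers were not tested. The ratio of Ern2 to Muc2 TPM was 0.0426 ± 0.0173 (SD, n = 5) in WT and 0.0221 ± 0.00429 (SD, n = 5) in cKO, a log2 difference of −0.86 (two-sided exact permutation p = 0.0159, adjusted over the 3 ratios 0.0238). WT replicates 3 and 4 had the highest ratios (0.0586 and 0.0636), and the groups overlapped, since WT replicate 2 (0.0253) lay below cKO replicate 3 (0.0286). Without WT replicates 3 and 4, the log2 difference was −0.45 and no longer passed (exact permutation p = 0.0536).

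**Figure D2:**
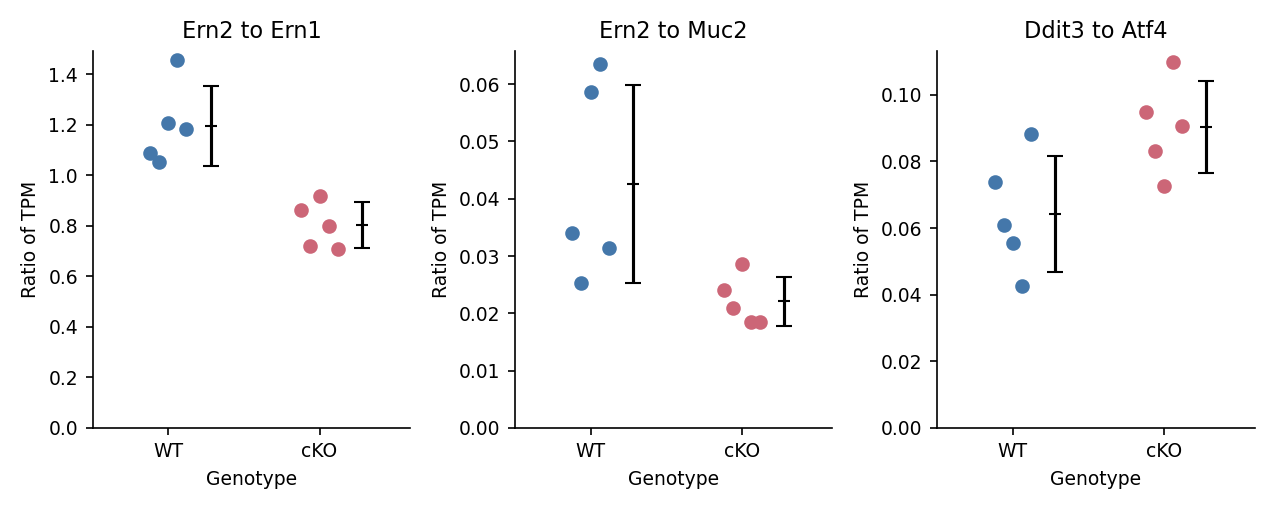
Ratios of TPM per library for Ern2 to Ern1, Ern2 to Muc2 and Ddit3 to Atf4 (linear axes from 0), with the mean and SD of the 5 libraries of each genotype beside the points. The groups do not overlap for Ern2 to Ern1, with means of 1.20 in WT and 0.803 in cKO, and overlap for the other ratios.

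Xbp1, the substrate of the IRE1 RNase, was among the more abundant of the 10 genes. It had 151, 192, 177, 186 and 247 CPM in WT and 223, 187, 186, 175 and 197 CPM in cKO. The lowest and the highest library were both WT (replicates 1 and 5), so that the cKO values lay within the WT range. For Xbp1 the log2 fold change was 0.02 (standard error 0.11, edgeR adjusted p = 0.907; 95% confidence interval −0.23 to 0.27). Its sign depended on the scaling, at −0.10 with library size only and −0.087 on log2(TPM + 0.5). The deposited mean transcript length of Xbp1, which moves with the estimated mix of its transcripts, did not overlap between the genotypes, and this held for 1 of the 10 genes, beside 3.72% of all tested genes with more than 1 transcript.

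Dnajb9 encodes ERdj4, an ER co-chaperone of BiP and a target of spliced XBP1. It had 27.3, 24.3, 26.4, 25.3 and 32.4 CPM in WT and 40.3, 41.0, 36.9, 48.4 and 49.5 CPM in cKO. Each cKO library lay above each WT library, with the narrowest gap between WT replicate 5 and cKO replicate 3. Dnajb9 rose by 0.67 on the log2 scale (standard error 0.10, edgeR adjusted p = 0.00128; 95% confidence interval 0.45 to 0.89), and it was between 0.62 and 0.76 when any 1 library was left out. In TPM, Dnajb9 rose from 14.8 ± 1.24 (SD, n = 5) to 22.2 ± 3.29 (SD, n = 5). Without WT replicates 3 and 4, the log2 fold change was 0.63 (edgeR adjusted p = 0.0119). The highest values, in cKO replicates 4 and 5, came from the libraries with the most enterocyte marker transcripts (14420 and 14040 TPM). Within WT the order differed. WT replicate 2 had the most enterocyte marker transcripts (6995 TPM) and the lowest Dnajb9, and WT replicate 5 had the highest Dnajb9 with 3424 TPM of these markers. The part of the enterocyte markers in this rise was not tested.

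In the PERK arm, the sensor gene Eif2ak3 had 24.9, 20.9, 27.0, 24.1 and 26.2 CPM in WT and 31.2, 27.8, 27.3, 25.4 and 30.2 CPM in cKO. Only cKO replicate 4 fell within the WT range. The log2 fold change of Eif2ak3 was 0.20 (standard error 0.09, edgeR adjusted p = 0.0901), with a 95% confidence interval from 0.02 to 0.39 before adjustment. Its size depended on the scaling, at 0.07 with library size only (edgeR adjusted p = 0.506) and 0.09 on log2(TPM + 0.5) (limma adjusted p = 0.525).

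Atf4, the transcription factor whose translation PERK favours, had 149, 185, 133, 179.8 and 187 CPM in WT and 154, 150.1, 146, 139 and 173 CPM in cKO. WT replicate 1 lay within the cKO range, replicate 3 below it and the other 3 above it. For Atf4 the log2 fold change was −0.13 (standard error 0.10, edgeR adjusted p = 0.358; 95% confidence interval −0.35 to 0.09). With library size only it was −0.26 and passed (edgeR adjusted p = 0.0469).

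Ddit3 encodes CHOP, a transcription factor of prolonged ER stress that promotes cell death, and was the gene with the fewest counts (104 to 211 per library). It had 5.40, 5.10, 3.53, 3.89 and 7.27 CPM in WT and 6.54, 5.86, 4.97, 7.18 and 7.49 CPM in cKO. WT replicates 3 and 4 were the lowest and WT replicate 5 was higher than 4 of the 5 cKO libraries. The log2 fold change was 0.35 (standard error 0.19, edgeR adjusted p = 0.194; 95% confidence interval −0.07 to 0.77), and without WT replicate 5 it was 0.53 and passed (edgeR adjusted p = 0.0465). Ddit3 shares 3.97% of its exon bases with Mars on the opposite strand, which had 1285 to 2827 counts, and the strand setting of the counting is not given in the sources used here.

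The ratio of Ddit3 to Atf4 TPM sets the late transcription factor of this arm against the earlier one. It was 0.0642 ± 0.0175 (SD, n = 5) in WT and 0.0903 ± 0.0138 (SD, n = 5) in cKO, a log2 difference of 0.52 (two-sided exact permutation p = 0.0397, adjusted over the 3 ratios 0.0397). WT replicates 1 and 5 (0.0738 and 0.0883) overlapped with the cKO libraries (0.0728 to 0.1099). The call was lost when any 1 of WT replicates 2, 3 or 4 or cKO replicates 1, 2, 4 or 5 was left out, with log2 differences from 0.38 to 0.54 and exact permutation p from 0.0556 to 0.0873. Without both WT replicates 3 and 4 the log2 difference was 0.28 (exact permutation p = 0.161).

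In the ATF6 arm, Atf6 itself had 53.1, 42.1, 58.4, 56.2 and 44.6 CPM in WT and 62.2, 58.7, 59.6, 58.1 and 60.4 CPM in cKO. The cKO libraries were close together and, except for replicate 4, above the highest WT library. The log2 fold change was 0.23 (standard error 0.09, edgeR adjusted p = 0.0706; 95% confidence interval 0.04 to 0.43). It passed under DESeq2 (adjusted p = 0.0391), with at least 10 counts in every library (edgeR adjusted p = 0.0457), without WT replicate 3 (edgeR adjusted p = 0.0384) and without WT replicates 3 and 4 together, where it was 0.36 (edgeR adjusted p = 0.0198). The size depended on the scaling. With library size only it shrank to 0.10 (edgeR adjusted p = 0.450), and on log2(TPM + 0.5) to 0.14 (limma adjusted p = 0.405).

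Hspa5 encodes BiP, the chaperone that binds the sensors when the ER is at rest. It had 763, 855, 901, 1163 and 1547 CPM in WT and 1075, 816, 805, 887 and 928 CPM in cKO. The WT libraries spanned the wider range, and WT replicate 5 was above all others. For Hspa5 the log2 fold change was −0.21 (standard error 0.18, edgeR adjusted p = 0.388; 95% confidence interval −0.60 to 0.17). Without WT replicate 5 it was −0.01.

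Hsp90b1 encodes GRP94, the HSP90 of the ER, and followed the same order of libraries in WT. It had 797, 848, 912, 1095 and 1349 CPM in WT and 977, 866, 824, 848 and 881 CPM in cKO. The groups overlapped and WT replicate 5 was again the highest. For Hsp90b1 it was −0.19 on the log2 scale (standard error 0.13, edgeR adjusted p = 0.301; 95% confidence interval −0.47 to 0.09). An opposite-strand pseudogene, 1810014B01Rik, shares 10.3% of the exon bases of Hsp90b1 but had only 281 to 410 counts, beside 22904 to 37096 for Hsp90b1.

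**Figure D3:**
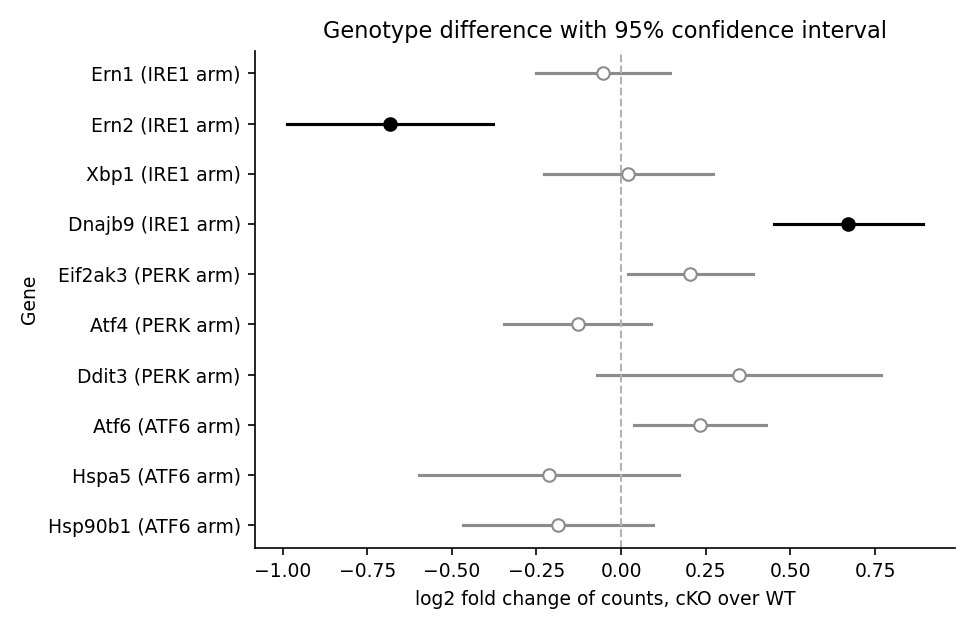
log2 fold change of cKO over WT for each of the 10 genes (points) with the 95% confidence interval (lines), from edgeR's quasi-likelihood fit on 5 WT and 5 cKO libraries. Filled black points passed the test (Dnajb9 at 0.67 and Ern2 at −0.68), and open grey points did not.

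Levels per transcript length separated the chaperone genes Hspa5 and Hsp90b1 from the sensor genes by far in both genotypes. In WT, Hspa5 (548 ± 146 TPM, SD, n = 5) and Hsp90b1 (473 ± 93.4) were the highest and overlapped with each other. Atf4 (134 ± 18.1) and Xbp1 (126.4 ± 17.3) came next and also overlapped, followed by Dnajb9 (14.8 ± 1.24). The ranges of these 3 steps did not overlap. Atf6 (9.25 ± 1.78), Ddit3 (8.53 ± 2.37), Eif2ak3 (7.50 ± 0.847), Ern2 (7.02 ± 1.89) and Ern1 (5.82 ± 1.12) each overlapped with the next in order.

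In cKO, the steps above Dnajb9 were the same, at 444.5 ± 59.5 TPM (SD, n = 5) for Hspa5, 390.3 ± 30.8 for Hsp90b1, 118.5 ± 11.4 for Xbp1 and 113 ± 8.14 for Atf4. Ddit3 (10.3 ± 1.85) and Atf6 (10.1 ± 0.434) overlapped. Below Atf6, Eif2ak3 (7.98 ± 0.523), Ern1 (5.06 ± 0.261) and Ern2 (4.05 ± 0.399) did not overlap with their neighbours in order. The lowest Ddit3 library (replicate 3, 7.74 TPM) lay within the range of Eif2ak3 (7.37 to 8.69 TPM). The SD of 9 of the 10 genes relative to the mean was smaller in cKO, all but Dnajb9, a difference that was not tested. That of Atf6 TPM was 19.2% of the mean in WT and 4.29% in cKO, and that of Ern2 was 26.9% and 9.86%.

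Within a genotype, the 10 genes did not vary as a single group. After each gene was centred on its genotype mean, the log2 CPM of Hspa5 and Hsp90b1 had a Pearson r of 0.99 over the 10 libraries, and Xbp1 followed them (r = 0.88 and 0.87). Ern2 and Atf6 went together (r = 0.93), as did Ern1 and Atf6 (r = 0.84), and Ern2 was close to unrelated to Hspa5 (r = 0.05). Ddit3 went with Dnajb9 (r = 0.76) and against Ern2 (r = −0.66). WT replicate 5 carried much of the first pattern, with deviations of 0.61 for Hspa5, 0.46 for Hsp90b1 and 0.39 for Xbp1. These r are descriptions of 10 libraries that share library scaling.

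**Figure D4:**
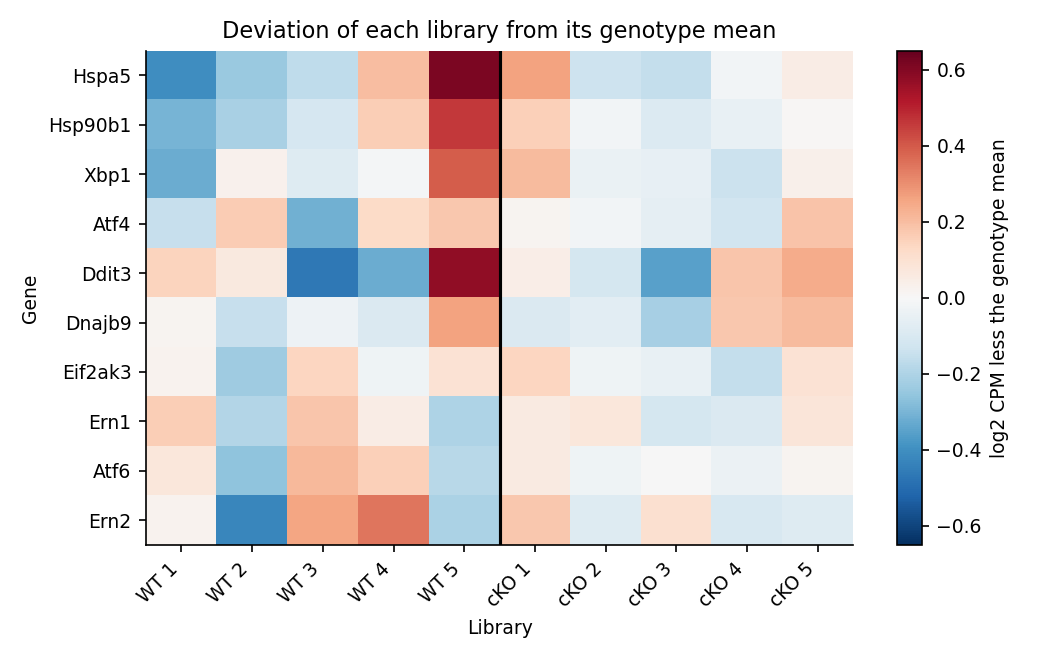
Deviation of log2 CPM from the genotype mean (colour) for the 10 genes (rows) in the 5 WT and 5 cKO libraries (columns, divided by a black line). WT replicate 5 is high in Hspa5 (0.61), Hsp90b1, Xbp1 and Ddit3, and WT replicates 3 and 4 are high in Ern2 and Atf6 and low in Ddit3.

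The 3 genes most like each of Hspa5, Xbp1, Ern2 and Ddit3 on this measure were taken from 9208 genes with a mean of at least 10 CPM. For Hspa5 they were Hsp90b1 (Pearson r = 0.99, Spearman rho = 0.98), the ER disulfide isomerase Pdia4 (r = 0.98, rho = 0.96) and the splicing factor Txnl4a (r = 0.97, rho = 0.98). For Xbp1 they were 3 genes of ER folding, Manf (r = 0.97, rho = 0.98), Pdia3 (r = 0.96, rho = 0.79) and the BiP co-chaperone Dnajb11 (r = 0.96, rho = 0.93). None of the nearest genes of Ern2 encodes an ER protein, and they were Zfp507 (r = 0.98, rho = 0.98), the DNA ligase gene Lig3 (r = 0.97, rho = 0.96) and the tubulin complex gene Tubgcp6 (r = 0.96, rho = 0.94). For Ddit3 they were Cybc1 (r = 0.93, rho = 0.94), the cystatin gene Cstb (r = 0.93, rho = 0.87) and Nit1 (r = 0.93, rho = 0.94).

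The wider pathway was read from 79 further genes in 6 lists, of which 78 were tested. Of these, 26 passed (33.3%, beside 28.3% of all tested genes), 18 higher and 8 lower in cKO, with a median log2 fold change of −0.02 beside −0.03 over all tested genes. The split depended on the scaling. With library size only, 10 were higher and 25 lower, and on log2(TPM + 0.5), 9 were higher and 16 lower. These scalings moved the median of all tested genes to −0.16 and −0.12, and the share of all calls that were higher from 55.1% to 27.7% and 33.6%.

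The IRE1-XBP1 list holds partners of IRE1 and the XBP1 targets of ER import, folding and export. Of its 17 genes, 4 were higher and 1 was lower in cKO (29.4% passed, near the 28.3% of all tested genes), with a median log2 fold change of 0.03. Sec24d, a coat protein of vesicles leaving the ER, whose promoter held the UPRE core, rose from 56.9 ± 14.2 (SD, n = 5) to 112 ± 15.4 CPM (SD, n = 5), a log2 fold change of 0.98 (edgeR adjusted p = 0.00188). This call and direction were kept under all 23 alternatives. The UPRE core was also found in the promoters of Srpra in this list (−0.17) and of Ube2j1 (0.10) and Vcp (−0.09) in the degradation list. None of these passed, and the core was in 0 of the 3 promoters listed for the IRE1 arm. Edem1, which hands misfolded glycoproteins to degradation, and the translocon genes Ssr3 and Sec63 rose by small amounts (log2 fold changes of 0.30, 0.24 and 0.16), and Traf2, the adaptor that binds IRE1, fell (−0.21). Sec63 kept its call and direction in 8 of 23 alternatives and lay below 0 in 3 of them, at −0.022 at the lowest, while Edem1 kept both in 17, Traf2 in 15 and Ssr3 in 13. The folding genes Dnajb11 (−0.06) and Dnajc3 (0.03), of which Dnajc3 holds the ERSE, did not pass.

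The PERK-ATF4 list moved in both directions. Of its 23 tested genes, 5 were higher and 6 lower in cKO (47.8% passed, beside 28.3% of all tested genes). The median log2 fold change was −0.24. The genes that fell, other than the stress-induced nuclear protein gene Nupr1, make or import amino acids or handle one-carbon units. Phgdh, the entry enzyme of serine synthesis, fell from 54.7 ± 12.8 (SD, n = 5) to 29.6 ± 1.92 CPM (SD, n = 5), a log2 fold change of −0.89 (edgeR adjusted p = 0.00149). Mitochondrial Shmt2 (−0.57), asparagine synthetase Asns (−0.48) and the amino acid transporter Slc7a5 (−0.81) fell as well, and all 4 kept call and direction under all 23 alternatives. The other genes that fell, Mthfd2 (−0.64) and Nupr1 (−0.48), are named because they complete the count.

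Among the genes that rose in this list, Trib3, a pseudokinase that acts with CHOP and restrains ATF4, had the largest difference. It went from 1.58 ± 0.944 (SD, n = 5) to 4.82 ± 1.6 CPM (SD, n = 5) with no overlap, a log2 fold change of 1.61 (standard error 0.38, edgeR adjusted p = 0.0100). Slc3a2, the heavy chain that pairs with Slc7a5, rose by 0.51 on the log2 scale while Slc7a5 fell, and cystathionine gamma-lyase Cth (0.39) and the ER oxidase gene Ero1a (0.36) rose too. Ppp1r15b (0.18) completes the count. Without WT replicates 3 and 4, Slc3a2 no longer passed, and on the TPM scale or with the effective gene length as an offset Ero1a did not. The CARE was found in 7 of 21 promoters of this list, those of Asns, Atf3, Chac1, Nupr1, Slc7a11, Trib3 and Vldlr. Of these, Trib3 rose, Asns and Nupr1 fell, and the other 4 did not pass, so that genes with the same letters moved in both directions.

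In the list of ATF6 processing and ER chaperones, 1 of 14 genes passed (7.14%, beside 28.3% of all tested genes). The median log2 fold change was −0.14. P4hb, a protein disulfide isomerase that is also a subunit of the triglyceride transfer complex of enterocytes, rose from 1241 ± 215 (SD, n = 5) to 1907 ± 173 CPM (SD, n = 5), a log2 fold change of 0.62 (edgeR adjusted p = 0.00303). Its call and direction were kept under all 23 alternatives. The genes of this list whose promoters held the ERSE, Calr, Canx, Creld2 and Pdia6, did not pass, as Hspa5 and Hsp90b1 did not.

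ER-associated degradation (ERAD) draws misfolded protein out of the ER. Of its 16 genes, 5 were higher and 0 lower (31.2% passed, near the 28.3% of all tested genes), with a median log2 fold change of 0.12. The channel gene Derl1 (0.33), the lectin genes Erlec1 (0.36) and Os9 (0.27) and the ligase adaptor Sel1l (0.29) were among those that rose. Sel1l went from 117 ± 10.2 CPM in WT to 143 ± 9.17 CPM in cKO libraries (SD, n = 5 each). On the TPM scale Derl1, Erlec1 and Os9 did not pass, with the effective gene length as an offset Derl1 did not, and with library size only Erlec1, Os9 and Sel1l did not, with all of them still on the positive side.

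Besides PERK, 3 kinases phosphorylate eIF2α. Eif2ak1, the haem-regulated kinase, rose from 75.7 ± 2.77 (SD, n = 5) to 95.9 ± 4.53 CPM (SD, n = 5), a log2 fold change of 0.34 (edgeR adjusted p = 0.00170). Eif2ak2, the kinase of double-stranded RNA (0.12), and Eif2ak4, the kinase of amino acid shortage (−0.32), did not pass.

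The CREB3 family are membrane-bound transcription factors that are cut in the Golgi as ATF6 is. Of the 5 genes, 2 were higher and 1 was lower (60% passed, beside 28.3% of all tested genes). Creb3l3, which controls lipid genes in liver and gut, went from 49.1 ± 27.6 (SD, n = 5) to 141 ± 32.6 CPM (SD, n = 5), a log2 fold change of 1.52 (standard error 0.39, edgeR adjusted p = 0.0191). Creb3l2, a factor of secretory pathway genes, rose by 0.84 on the log2 scale (edgeR adjusted p = 0.00558), and Creb3l4 fell by 0.37 (edgeR adjusted p = 0.0141). Creb3 (0.29) and Creb3l1 (−0.17) did not pass. Creb3l3 lost its call without a filter on low counts, and Creb3l4 without WT replicates 3 and 4.

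**Figure D5:**
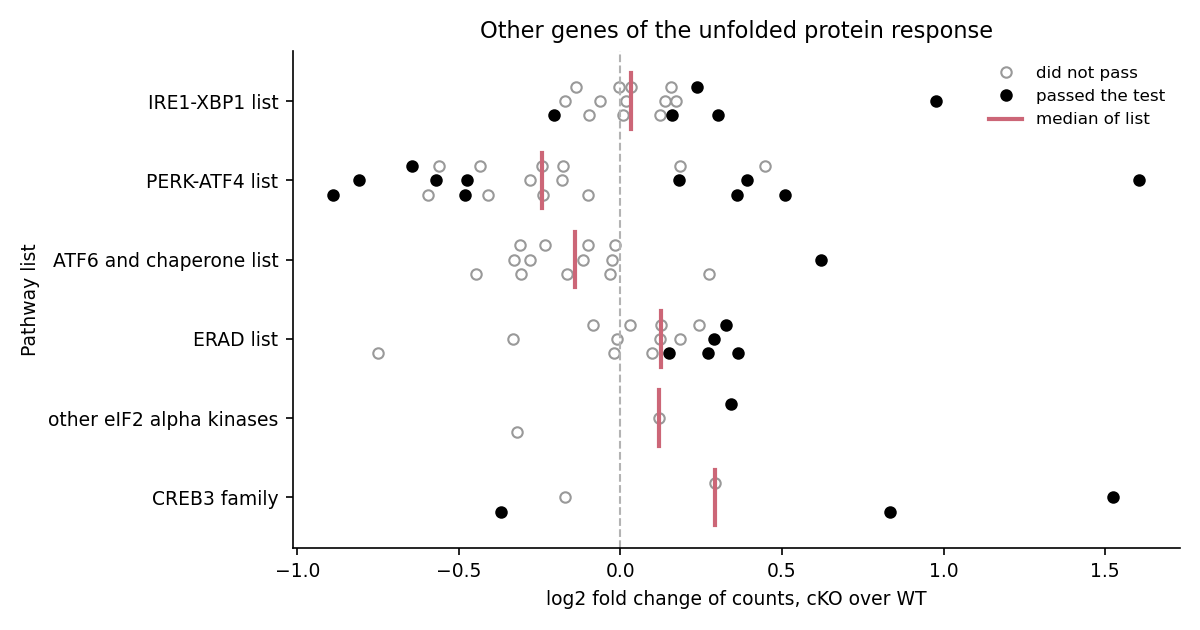
log2 fold change of cKO over WT for the 78 tested genes of the 6 pathway lists (points, filled where the edgeR adjusted p is below 0.05), with the median of each list as a red bar. The PERK-ATF4 list spreads from −0.89 (Phgdh) to 1.61 (Trib3) around a median of −0.24, while in the ATF6 and chaperone list P4hb (0.62) alone is filled.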

How the data were processed

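The authors aligned reads with STAR and estimated gene abundance by RSEM (nf-core/rnaseq pipeline, Ensembl annotation of GRCm38), and deposited per library an expected count, TPM (transcripts scaled to a fixed total), FPKM and length for each gene. Replicates were not pooled. Genes without a symbol held at most 0.0215% of counts. Expected counts were rounded and filtered (edgeR 4.0.16 filterByExpr, minimum count 10, total 15), scaled by TMM and fitted with edgeR's robust quasi-likelihood test on genotype, with Benjamini-Hochberg adjustment over all tested genes (threshold 0.05). Fold changes are cKO over WT and are not shrunk. Ratios of TPM + 0.1 were tested by exact permutation of libraries (SciPy 1.17.1). DESeq2 1.42.0, limma 3.58.1 on voom weights and on log2(TPM + 0.5), other scalings and filters, a replicate block and the omission of each library were alternatives. Scripts were tested on simulated data. FPKM values were not used. The 10 genes, the lists and the marker genes were chosen with earlier results of these data known. Genes were named by rule, as the up to 4 genes per direction with the smallest adjusted p in each of the 4 longer lists with a mean of at least 1 TPM, all genes of the 2 short lists, and the 3 genes nearest to Ern2, Xbp1, Hspa5 and Ddit3; those said to complete a count were named after their values were seen. Among the genes that passed, 1 is not reported here. Libraries come from separate animals. Omitting WT replicates 3 and 4 together was chosen after the data were seen.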

Additional observations from a re-analysis of the deposited data

Results flagged for a closer look

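The mean transcript length of Xbp1, which the main fit of counts does not use and whose lack of overlap is given above, differed between the genotypes. RSEM weights the lengths of the 4 annotated Xbp1 transcripts by their estimated share, so the column moves with the estimated mix of transcripts. It was 2034 bases in WT (2010 to 2052 over the 5 libraries) and 2069 bases in cKO (2055 to 2079), 35.1 bases longer in cKO with no overlap (two-sided exact permutation p = 0.00794, the smallest that 5 against 5 can give). Xbp1 was 1 of 10 genes with more than 1 transcript without overlap, beside 3.72% of 12061 such genes, and it is singled out after its values were seen. The transcripts of the annotation used here do not include the joined form without the 26 bases, so splicing by IRE1 cannot be read from this column. The part of such splicing in the difference was not tested. Among the CPM values of the 10 genes and the other values tested, 26 groups of 5 libraries were searched for a library far from the rest (gap over range above 0.71), and 0 were found.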

How the results depend on the processing

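Dnajb9 and Ern2 passed in the same direction under all 23 alternatives (log2 fold changes from 0.54 to 0.76 and from −0.82 to −0.46). Atf6 also passed in 4, Atf4 in 1 and Ddit3 in 1, as given above. Xbp1, which passed in none, turned negative with library size only (−0.10), on the TPM scale (−0.087 in 3 fits), without WT replicate 1, WT replicate 3 or cKO replicate 1 and without WT replicates 3 and 4 (−0.022); leaving out each library gave −0.052 to 0.15. Ern1 turned positive without WT replicates 3 and 4 (0.024). All genes past the threshold were 4167, 2143 without WT replicates 3 and 4 and between 2997 and 5571 under the other alternatives. Pathway genes past it were 26, 17 without WT replicates 3 and 4 and 18 to 35 otherwise. The cause was not tested, beyond the fewer libraries.

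The replicate numbers did not pair the libraries (correlations of same-numbered deviations from −0.21 to 0.09). With the replicate block, 3052 genes and 18 pathway genes passed, and among the named pathway genes Creb3l3, Os9, Ssr3, Sec63 and Traf2 did not. Under the paired sign-flip test, the log2 differences of the ratios were −0.56, −0.86 and 0.52, each with an exact p of 0.0625, the smallest it can give. Leaving out each library gave −0.61 to −0.49 for Ern2 to Ern1, −1.02 to −0.69 for Ern2 to Muc2 and 0.38 to 0.64 for Ddit3 to Atf4. Without WT replicates 3 and 4, Ern2 to Muc2 was −0.45 and Ddit3 to Atf4 0.28. Ddit3 had the fewest counts of the 10 genes and the widest interval (−0.07 to 0.77).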
